A study of Mus musculus with 2 samples.

Results

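Retinoic acid is made from retinol in successive oxidations, is carried in the cytoplasm by cellular binding proteins, acts in the nucleus through heterodimers of a retinoic acid receptor (RAR) and a retinoid X receptor (RXR), and is cleared by enzymes of the Cyp26 family. In the embryonic gonad it is known for promoting entry into meiosis of female germ cells, while Cyp26b1 made by Sertoli cells keeps its level low around male germ cells. It is also one of the compounds known to stand in for bFGF when primordial germ cells (PGCs) are reprogrammed into embryonic germ cells (EGCs). Here 10 genes of this pathway, chosen by symbol, were followed among 18742 genes with a value above 0 in at least 1 of the 2 libraries. They were 5 receptors (Rara, Rarb, Rarg, Rxra and Rxrb), the binding proteins Crabp1 and Crabp2, the degrading enzymes Cyp26a1 and Cyp26b1, and the retinol dehydrogenase Rdh10. Each member was found in both files, in a single row.

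PGCs were sorted by GFP from the genital ridges of male and female E13.5 embryos of MCH mothers and Oct4-deltaPE-GFP fathers. They were infected at an MOI of 5 with a control lentivirus or with one that drives the Klf9 coding region (Klf9-OE), and cultured for 1 day on gelatin in medium for EGC induction. The labels describe this medium as containing bFGF and the paper describes it as lacking bFGF. Which of several control vectors was used is not given in the sources used here. Neither is the share of each sex in the libraries. Each condition had 1 library, so no difference below has a replicate check, and no p-value is given. Values are RPKM, read counts scaled for transcript length and library size, with the 95% interval that Cufflinks gives for the error of estimation within a library. Klf9 itself had 2.27 RPKM in the control library and 80.8 in the Klf9-OE library, where reads from the vector can count too. The size of this difference depended on the measure, as given with the processing below.

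The germ cell markers were far above those of the gonad soma in both libraries. Over 12 germ cell markers, among them Ddx4 and Dazl, the summed RPKM was 1818 in the control library and 1533 in the Klf9-OE library. The summed RPKM of 10 Sertoli markers was 27.4 and 34.9, and none of the other somatic lists exceeded 40.4. Of the germ cell markers, 11 of 12 had lower values in Klf9-OE PGCs, and the stromal list went from 17.8 to 26.0, with 6 of the 6 genes above 0 in both libraries at higher values. All germ cell markers but Nanos2 and Prdm1 had rows assembled from reads in at least 1 file, a matter taken up with Crabp2 below. By the ratio of reads, corrected for depth, Mael (4.04) and Dazl (0.839) turned in direction, and the other germ cell markers stayed lower. Fewer cells of a type and less RNA per cell cannot be told apart in such libraries. The part of these shifts in the values below was not tested.

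**Figure D1:**
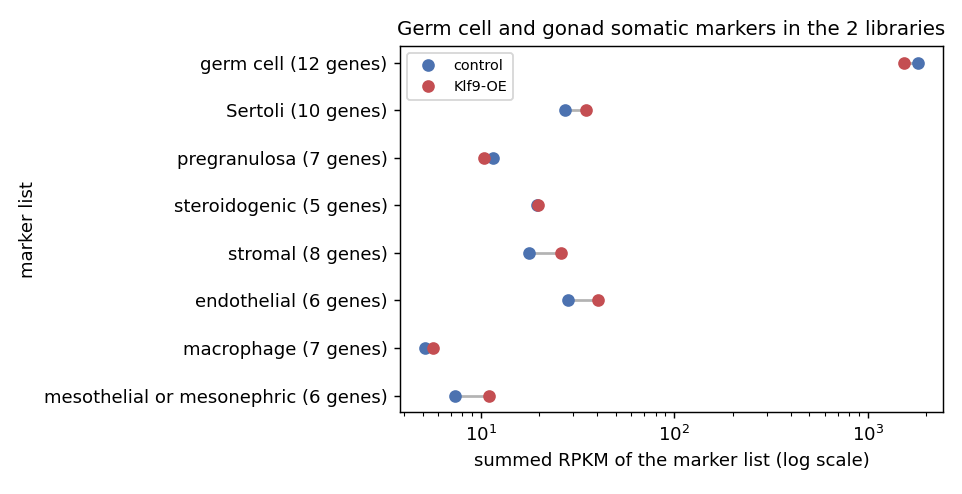
Summed RPKM (log scale) of 8 lists of cell type markers in the control library (blue) and the Klf9-OE library (red), with the number of genes of each list found in both files. The germ cell list lies at 1818 and 1533 RPKM and every somatic list at or below 40.4.

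Among the members, 2 carry a retinoic acid response element of the DR5 type in the window from 250 bases before to 50 bases after a RefSeq start (GRCm38.p6). Such an element is a direct repeat of a half-site, with a spacer of 5 bases, which RAR-RXR heterodimers bind. They are shown because Rarb and Cyp26a1 are known targets of retinoic acid. Whether their level reports on retinoic acid in these cells was not tested. Half-sites are in capitals, on the strand of the match.
Rarb: ggaagGGTTCAccgaaAGTTCActcgc
Cyp26a1: aaattAGTTCAcccaaAGTTCAtcttt
The Rarb element lies at chr14:16575513-16575529 on the reverse strand, which is the strand of the gene, and begins 53 bases before the start of the shorter transcript, inside the locus given in the files. The Cyp26a1 element lies at chr19:37697776-37697792 on the strand opposite to the gene, and its outer edge is 32 bases before the start. The search took AGGTCA or GGGTCA as either half-site, each also with TT in place of its GT, on both strands, and found a DR5 element in 0.115% of 27025 genes with a window. Windows were at hand for 8 members, and Crabp2 and Rdh10 had none in the table. With spacers of 1 or 2 bases no member matched. The GC-rich letters GGGCGG and the letters CACCC, which Klf factors are known to bind, were each present in a window of 7 of the 8 members, Rarb being the exception, and in 38.2% and 59.8% of all genes, respectively. A gene with more windows has more room for a match. Counted by window, GGGCGG was in 10 of 14 member windows and in 35.7% of all 32851. CACCC was in 12 of 14 and in 57.5%. A match is a stretch of letters and not evidence of binding.

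By RPKM, the receptors that could be compared had nearly the same level in both libraries. What the kinds of row and the reads mean for such values is taken up with Crabp2 below. Rarg (chr15:102234938-102257522, mm10), the RAR isotype known from embryonic epithelia and stem cells, stood at 9.005 RPKM (95% interval 8.24 to 9.77) without and at 9.90 RPKM (9.13 to 10.7) with Klf9-OE. Rxra (chr2:27677201-27763319), an RXR isotype that pairs with many nuclear receptors, had 9.11 (8.52 to 9.71) and 8.20 (7.64 to 8.77). Rxrb (chr17:34031812-34038403), the broadly expressed RXR isotype, had 14.8 (13.7 to 15.9) and 13.51 (12.5 to 14.5). The intervals of each of these 3 genes overlapped between the libraries, and the summed RPKM of Rxra and Rxrb was 23.9 without and 21.7 with Klf9-OE. Rarb (chr14:16430840-17082331), whose promoter holds the element above, was low in both, at 0.583 (0.4 to 0.767) and 0.482 (0.322 to 0.641). These intervals also overlapped, and the log2 fold changes of the 4 genes (the log2 of RPKM + 0.1 with Klf9-OE less that of the control) lay between -0.23 for Rarb and 0.13 for Rarg. The row of Rxrb was assembled from reads in the control file only, and that of Rarb in the Klf9-OE file only. Those of Rarg and Rxra were assembled in neither. The depth-corrected ratios of reads were 0.985 for Rarg, 0.743 for Rxra, 0.884 for Rxrb and 0.741 for Rarb. Near equality was thus less close by reads for Rxra and Rarb. All 4 genes have several starts, for which numbers of reads are less direct.

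Rara (chr11:98937696-98974942), the most widely expressed RAR gene, stood at 16.1 RPKM (15.1 to 17.1) in the control library, the highest of the 5 receptors there, with an interval that overlapped that of Rxrb. With Klf9-OE it was listed at 0, and so were both of its bounds. Rdh10 (chr1:16105882-16132550), which catalyses the first oxidation of retinol and is needed for retinoic acid synthesis in the embryo, had the opposite listing, 0 without and 9.76 RPKM (9.01 to 10.5) with Klf9-OE. No fold change is given for either gene, since an exact 0 in these files can be a failed estimate. Genes that every cell uses were also listed at exactly 0 in 1 of the files. Ndufb10, a subunit of respiratory complex I, was at 0 in the control file and at 122 in the other, and Mrpl18, a protein of the mitochondrial ribosome, was at 0 and 61.3. In the other direction Mrps26, also of the mitochondrial ribosome, went from 43.1 to 0, and Anapc10, a subunit of the anaphase-promoting complex, from 10.01 to 0. These 4 genes were picked after their values were seen. Small RNA genes aside, the control file gave 0 for 0.586% of 8526 genes that reached 5 RPKM with Klf9-OE, and the Klf9-OE file gave 0 for 0.419% of 8582 genes that reached it in the control. In the library with the 0, both Rara and Rdh10 carried an identifier that Cufflinks gives to loci it assembled from reads, as did 41 of these 50 genes of the control file and 27 of the 36 of the Klf9-OE file. Ndufb10, Mrpl18 and Anapc10 carried one as well, but Mrps26 did not. Among genes above 0 in the same comparison, 71.6% and 63.6% carried such an identifier. Whether Rara or Rdh10 differed between the cultures therefore cannot be read from these files.

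The binding proteins were the most abundant members. Crabp2 (chr3:87948693-87953372), which is known to deliver retinoic acid to RAR in the nucleus, stood at 89.6 RPKM (83.9 to 95.4) without and at 39.9 RPKM (37.3 to 42.6) with Klf9-OE. It was the highest member in each library and ranked at percentile 94.9 of all genes in the control library and 87.6 in the Klf9-OE library. Its RPKM was 2.24-fold lower with Klf9-OE (log2 fold change -1.16), and the intervals lay apart. Crabp1 (chr9:54764748-54773110), which binds retinoic acid in the cytoplasm and is known to favour its breakdown, had 21.7 (19.2 to 24.2) and 18.2 (16.1 to 20.3), with intervals that overlapped. The RPKM of Crabp2 was thus 4.13 times that of Crabp1 in the control library and 2.19 times with Klf9-OE.

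**Figure D2:**
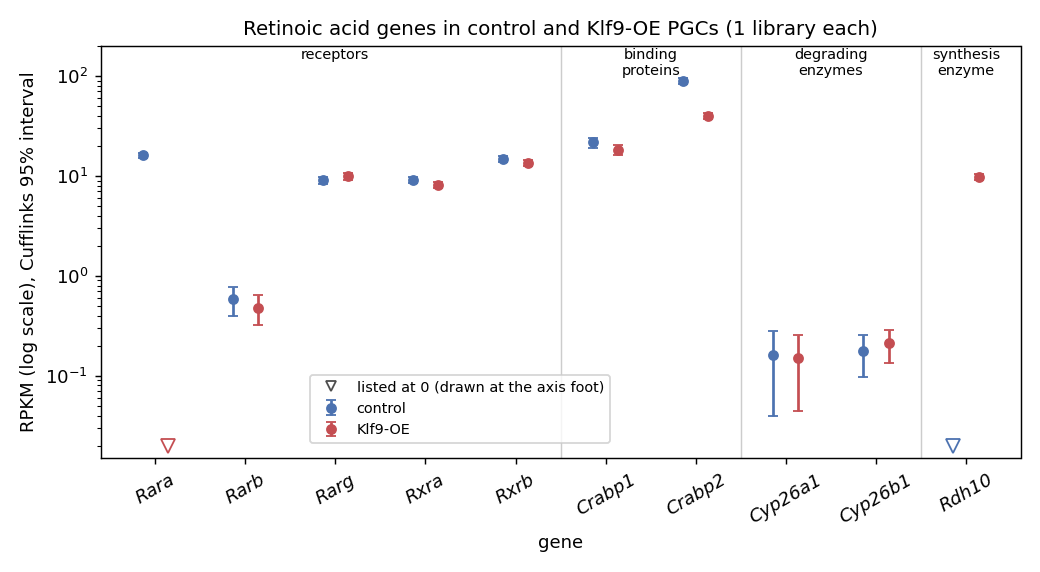
RPKM (log scale) of the 10 members in the control library (blue) and the Klf9-OE library (red), with Cufflinks 95% intervals as bars and genes listed at 0 as open triangles at the foot of the axis. Crabp2 is the only member above 0 in both libraries whose intervals lie apart, at 89.6 and 39.9 RPKM, and Rara and Rdh10 are each listed at 0 in 1 library.

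The value of Crabp2 rested on different kinds of row in the files. Its row carried an assembled identifier in the control file and the reference identifier in the Klf9-OE file. Taking genes that reached 1 RPKM in both libraries, 1913 had this combination, of which 3.82% were lower with Klf9-OE by 2-fold or more and 0.261% were higher by as much. The 1067 genes with the opposite combination mirrored this, with 0.469% lower and 4.22% higher. Where both rows carried the reference identifier (2905 genes), the shares were 1.62% and 1.31%. The lower value of Crabp2 thus had the direction that prevailed among genes with the same combination of rows, and it cannot be told apart from the change of row. The interval of a gene with a single transcript also gives back the number of reads behind its value, and by this measure Crabp2 had 980 reads in the control library and 914 in the other. Corrected for the depth of the libraries, the ratio of reads was 0.765 and the ratio of RPKM was 0.446. These ratios came within 10% of each other for 90.8% of genes with reference identifiers in both files, but for only 26.1% of genes with the identifiers of Crabp2, so neither ratio is secure for this gene. For Crabp1, with reference identifiers in both files, 303 and 310 reads gave a ratio of 0.838, beside an RPKM ratio of 0.840.

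**Figure D3:**
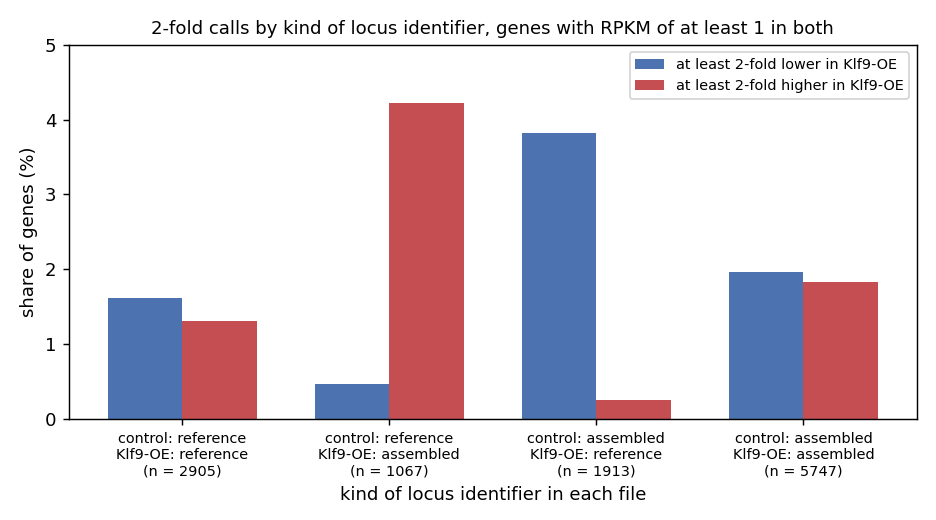
Share of genes lower (blue) or higher (red) by 2-fold or more with Klf9-OE, by whether the gene's row carried a reference or an assembled identifier in each file, for genes that reached 1 RPKM in both. Lower genes prevail (3.82% against 0.261%) where only the control row was assembled, as for Crabp2, and higher genes (4.22% against 0.469%) where only the Klf9-OE row was.

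The degrading enzymes were near the limit of detection in both libraries. Cyp26a1 (chr19:37697808-37701536), whose promoter holds the other element and which retinoic acid induces in many cells, stood at 0.161 RPKM (0.0393 to 0.283) without and at 0.151 RPKM (0.0442 to 0.258) with Klf9-OE. The intervals imply 7.0 and 8.0 reads. Cyp26b1 (chr6:84571414-84593908), the enzyme of the fetal testis soma, had 0.178 (0.0981 to 0.257) and 0.212 (0.134 to 0.290), with 19.95 and 29.3 implied reads. Cyp26b1 has several starts, so its numbers of reads are less direct. A 2-fold difference in Cyp26a1 could not have been seen at this depth, since its interval alone spans more than that. Amh and Gata4, which are made by the Sertoli cells that carry Cyp26b1, had 5.99 and 6.21 RPKM in the control library and 9.29 and 7.47 RPKM in the Klf9-OE library, whereas Sox9, the Sertoli transcription factor, had 2.04 and 1.09. Of the 9 Sertoli markers above 0 in both libraries, 5 had higher and 4 had lower values with Klf9-OE, and Fgf9 was listed at 0.170 and 0. These 4 genes were named after their values were seen.

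Of the 10 members, 3 differed by 2-fold or more in RPKM, where 19.3% of all 18742 genes did so. Of the members, 1 was higher and 2 were lower, beside 9.82% and 9.43% of all genes, and 2 of these 3 were the genes listed at 0 in 1 library. Among the 8 members above 0 in both libraries, only Crabp2 did so, where 11.3% of 17061 genes above 0 in both libraries did. Intervals lay apart for the same 3 members, and for 25.5% of all genes. The other 7 members above 0 in both libraries had ratios from 0.826 to 1.19 and overlapping intervals. The median log2 fold change of the members was -0.14, beside -0.015 over all genes. In order of RPKM, Crabp2 and Crabp1 led in both libraries, then came the receptors other than Rarb that were above 0, with Rdh10 between Rarg and Rxra in the Klf9-OE library, and Rarb, Cyp26b1 and Cyp26a1 ended the order of the members above 0, with overlapping intervals of the Cyp26 genes in each library. Rarg and Rxra did not differ beyond their intervals in control PGCs, nor did Rarg and Rdh10 in Klf9-OE PGCs.

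The rest of the pathway was followed in 101 further genes above 0 in at least 1 library. With Klf9-OE, 10 of them were higher and 9 lower by 2-fold or more, together 18.8%, a share close to that of all genes. Among the 68 that reached 1 RPKM in either library, 7 were higher and 5 lower, together 17.6%, where 7.72% of all such genes were changed. The highest enzymes of the synthesis list were Adh5, an alcohol dehydrogenase whose main substrate is a formaldehyde adduct (66.8 and 70.3, overlapping intervals), and Aldh1a1, a retinaldehyde dehydrogenase (19.6 and 23.5, intervals apart). Aldh1a2, the main enzyme for retinoic acid in the early embryo, had 16.8 and 14.1, also with intervals apart. Its row carried an assembled identifier in the control file only, as that of Crabp2 did, and its depth-corrected ratio of reads was 1.17, so that its direction turned with the measure. Aldh1a2 was named after its value was seen. The row of Adh5 had the same combination, with 64.8 implied reads in the control library and 1363 in the other. Its depth-corrected ratio of reads was 17.2, though Adh5 has several starts, for which implied reads are less direct.

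Of 21 genes of the synthesis list above 0, 4 were higher and 3 lower by 2-fold or more. Dhrs3, which reduces retinaldehyde back to retinol and is induced by retinoic acid in many cells, had 0.602 RPKM (0.315 to 0.889) without and 1.26 RPKM (0.899 to 1.63) with Klf9-OE. Adh1, an alcohol dehydrogenase active on retinol, had 0.418 (0.186 to 0.650) and 1.11 (0.762 to 1.45). Both were higher with intervals apart and with reference identifiers in both files. The gap between the intervals was small, from 0.889 to 0.899 for Dhrs3 and from 0.650 to 0.762 for Adh1. Klf9-OE intervals may be too narrow. By the bounds given, the intervals of each gene would overlap if that of Klf9-OE were widened by the square root of 2. These gaps are therefore not secure. Adh4, another alcohol dehydrogenase, went from 4.52 to 1.83, with the same combination of rows as Crabp2 and a depth-corrected ratio of reads of 0.822. Retsat, which saturates retinol, was listed at 0 in the control file and at 10.01 in the other.

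Binding and uptake genes showed no 2-fold change where they reached 1 RPKM. Fabp5, which can carry retinoic acid to another nuclear receptor, had 14.6 and 13.51, and Rbp4, the retinol carrier of plasma, had 5.85 and 7.71. Of the 5 storage and cleavage genes above 0, Dgat1, an acyltransferase that can esterify retinol, had 30.5 and 27.6. Bco2, a carotenoid oxygenase, had 2.39 and 6.59 with assembled identifiers in both files, but its depth-corrected ratio of reads was 0.414, in the opposite direction. The remaining genes of degradation, Cyp2s1 and Cyp26c1, were below an RPKM of 1 in both libraries. Rxrg, the RXR isotype of muscle and brain, had 0.251 (0.101 to 0.400) and 0.583 (0.383 to 0.782), with overlapping intervals.

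Of 12 nuclear receptors that pair with RXR and were above 0, 2 were lower by 2-fold or more and none was higher by as much. Vdr, the vitamin D receptor, went from 10.5 (9.74 to 11.2) to 4.56 (4.20 to 4.93), and Thra, a thyroid hormone receptor, from 5.56 (4.75 to 6.37) to 2.45 (2.07 to 2.83). Both carried an assembled identifier in the control file only, as Crabp2 and Adh4 did, and their depth-corrected ratios of reads were 0.656 and 0.721. Nr1h2, a liver X receptor and the highest of the list, had 37.7 and 33.5. Among 19 coregulators, such as Hdac3 of the NCoR complex at 33.9 and 34.6, the only gene changed 2-fold was Gps2, also of that complex, which was listed at 41.1 and 0. Nsd1, a histone methyltransferase, had 27.1 and 51.7 RPKM, short of 2-fold, but its depth-corrected ratio of reads was 0.494, in the opposite direction.

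**Figure D4:**
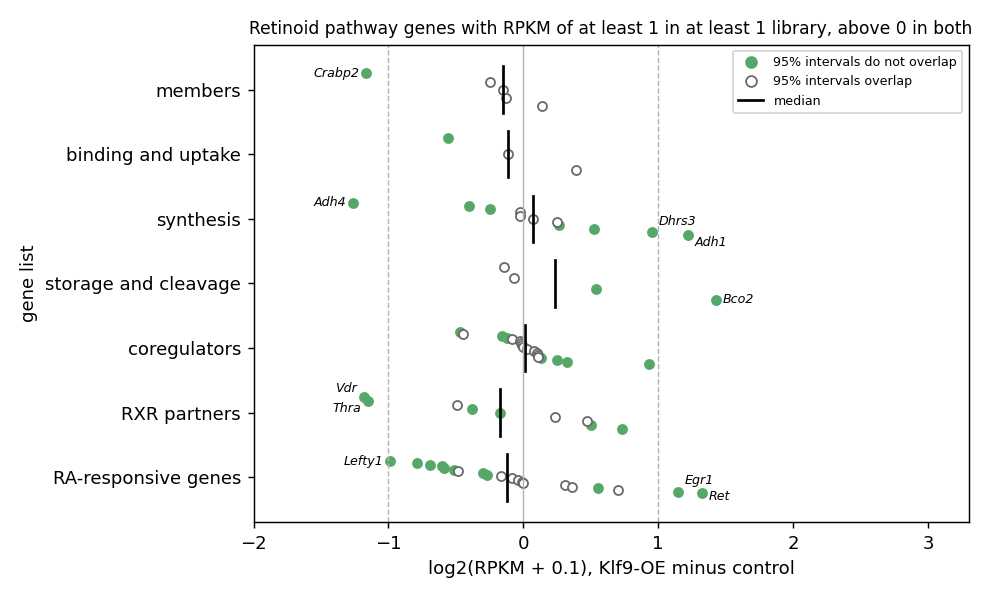
Difference in log2(RPKM + 0.1), Klf9-OE minus control, for members and for 6 other lists of the pathway, for genes above 0 in both libraries that reached 1 RPKM in either. Filled points have intervals that lie apart, black bars are list medians over the points drawn, and dashed lines mark a difference of 1 in either direction. Crabp2, Adh4, Vdr and Thra lie beyond it on the lower side, and Adh1, Bco2, Egr1 and Ret on the upper side.

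Genes known to respond to retinoic acid moved in both directions. Of 34 above 0, 4 were higher and 2 lower by 2-fold or more, and the median log2 fold change of the 33 above 0 in both libraries was 0.00069, beside -0.012 over all such genes. Stra8, the gene that retinoic acid induces at the onset of meiosis in female germ cells, was the highest of the list, at 120 RPKM (114 to 125) without and 79.4 RPKM (75.7 to 83.0) with Klf9-OE, 1.51-fold lower with intervals apart, and its depth-corrected ratio of reads was 0.819. Rec8, a meiotic cohesin, had 37.0 (34.7 to 39.3) and 30.04 (28.6 to 31.4), also apart. Its row was assembled in the control file only and its depth-corrected ratio of reads was 1.48, so the direction for Rec8 turned with the measure. The part of the female share in these values was not tested. Egr1, an immediate early gene of many stimuli, was 2.25-fold higher (3.76 and 8.45), and Lefty1, a secreted Nodal inhibitor, 2.04-fold lower (3.55 and 1.74), both with reference identifiers in both files. Ret, a receptor tyrosine kinase, went from 10.03 to 25.2, but its implied reads were only 1.18-fold higher after correction for depth. Rarres2, the gene of chemerin, was listed at 0 and 1.54.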

How the data were processed

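The authors mapped single-end reads to mm10 and RefSeq with TopHat2 and Bowtie, and Cufflinks estimated, for 1 control and 1 Klf9-OE library, the FPKM deposited for each locus with its 95% bounds. For single-end reads this FPKM is the RPKM of the paper. Versions are not given in the sources used here. Differentially expressed genes of the study came from Cuffdiff, which was not used here.

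Rows were matched by symbol and summed per symbol. Members and lists were chosen with earlier results of these data known. A gene was counted as changed where the RPKM differed by 2-fold or more, with a 0 in 1 library counted, and log2 fold changes used a pseudocount of 0.1. Of the other lists, genes that reached 1 RPKM in either library and differed 2-fold with intervals apart are named, with the 2 highest of each list. Exceptions are stated. Of the marker lists, Star (0 and 2.39 RPKM), Cdh5 (2.00 and 5.09), Csf1r (0.307 and 1.18) and Msln (1.05 and 3.03) met this rule. Star was at 0 in an assembled row of the control file, as Rdh10 was. Csf1r and Msln had assembled rows in the Klf9-OE file only, with depth-corrected ratios of reads of 1.23 and 1.54. That of Cdh5, assembled in both files, was 2.22. The summed RPKM was 11.6 and 10.4 for pregranulosa, 19.5 and 19.8 for steroidogenic, 28.0 and 40.4 for endothelial, 5.13 and 5.67 for macrophage, and 7.38 and 11.0 for mesothelial or mesonephric markers, in control and Klf9-OE PGCs.

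The files hold no read totals. Implied reads are the square of 2 times the RPKM over the distance to the upper bound. By the median over 2647 genes with reference identifiers and a single start, 1.22 reads were counted in Klf9-OE for each in control. For Klf9, whose rows were assembled in both files, the depth-corrected ratio of reads was 6.52, beside an RPKM ratio of 35.6. Implied numbers from 1 to 9 (within 0.06 of a whole number) were even for 36.1% of genes in control and 87.6% in Klf9-OE, so Klf9-OE intervals may be too narrow. The steps were tested on libraries simulated from genes with reference identifiers, a single start and an RPKM of at least 1. That test covered neither assembled rows nor genes listed at 0. Python 3.11.15, numpy 2.4.6, pandas 2.3.3 and matplotlib 3.10.9 were used.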

Additional observations from a re-analysis of the deposited data

Results flagged for a closer look

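Loci without a gene name, which the comparisons left out, lay inside 2 members in the Klf9-OE file and inside none in the control file. In Rarg they lay at chr15:102246628-102247091 (RPKM 2.98, 95% interval 1.81 to 4.15, 25.8 implied reads) and at chr15:102247351-102247529 (15.9, 5.62 to 26.1, 9.59 implied reads), both in introns of the GENCODE annotation (GRCm38). In Rxrb the locus lay at chr17:34032498-34032686 (44.3, 29.0 to 59.6, 33.4 implied reads) and overlapped an annotated exon. They are given because rows without a gene name entered no comparison, and they have no control value, since the control file lists no such locus inside these genes. Over all genes, such loci overlapped 6.41% in the control file and 15.7% in the Klf9-OE file, where 15127 loci had no name against 6482, and the cause was not tested.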

How the results depend on the processing

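With 1 library per condition, no library could be left out. No paired analysis was possible because the comparison had 1 library on each side. The count of members changed 2-fold was 3, beside 19.3% of all genes. It stayed 3 under rescaling to the same upper quartile (19.2% of all genes) or sum (19.2%), and with an RPKM of at least 1 (7.72%). It was also 3 with a pseudocount of 1 (3.18%) and with a 1.5-fold ratio (31.1%). With a 4-fold ratio (11%) it was 2, namely Rara and Rdh10, which are listed at 0 in 1 library, and Crabp2 dropped out. It fell to 1 with an RPKM above 0 in both libraries, because Rara and Rdh10 then drop out, and to 0 with the ratio of implied reads, both chosen after seeing the data. The 3 members with intervals apart stayed 3 with the Klf9-OE interval widened by the square root of 2 and with both intervals widened 2-fold, while the share over all genes went from 25.5% to 20.4% and 8.91%. Only Crabp2 was put to the check by this. For Rara and Rdh10 the outcome was fixed, since an interval from 0 to 0 cannot widen. The median log2 fold change of the members stayed between -0.15 and -0.080. The count of 19 other pathway genes changed 2-fold was 12 with an RPKM of at least 1, because 68 genes then remain. Of 40 log2 fold changes of single members under alternatives, 37 stayed within their interval and none of a called member turned in direction. The 3 others came from implied reads, with -0.021 for Rarg, -0.43 for Rxra and -0.39 for Crabp2. Rarg, which was not called, thus turned from 0.13. Rarg and Rxra have several starts, for which implied reads are less direct. Rescaling moved the median of all genes to at most 0.041. The few reads of the Cyp26 genes limit what could be seen of them.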
